A study of Bos taurus with 9 samples.

Results

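The genes described here are 9 transcription factors that bind regulatory DNA in hepatocytes, the main parenchymal cells of the liver: *FOXA1*, *FOXA2*, *FOXA3*, *HNF4A*, *ONECUT1*, *CEBPA*, *CEBPB*, *PROX1* and *CREB3L3*. They were taken by gene symbol from a bovine liver RNA-seq count table that lists 28786 genes. Each of the 9 symbols had 1 row in the table, and all 9 genes passed the low-count filter and were tested in every comparison. They were followed through all 9 libraries, 3 cows in each of 3 groups. The TN group was kept at thermoneutrality and the HS group under heat stress. The PF group stayed at thermoneutrality but was pair-fed, receiving only as much feed as the heat-stressed cows ate. All were lactating Holstein cows that had first been acclimated at thermoneutrality. The cows' ages were not given in the sources used here. A pair-fed cow models the lower intake of heat stress without the heat, so HS against TN holds both factors, HS against PF the heat at a matched intake, and PF against TN the intake.

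FOXA proteins are forkhead factors that open compacted chromatin and let other factors reach liver enhancers, and the 3 paralogs bind closely related sites. HNF4A, an orphan nuclear receptor, and ONECUT1, also called HNF6, keep up the mature hepatocyte program, and PROX1 is a homeodomain factor needed for liver formation that acts largely as a repressor. CEBPA maintains metabolic gene expression in the resting liver, whereas CEBPB is induced in the acute-phase response. CREB3L3, also called CREBH, is held in the endoplasmic reticulum membrane, is released by proteolysis under fasting or endoplasmic reticulum stress, and activates genes of triglyceride handling and the acute phase.

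The libraries held between 16874444 and 22557047 counts, so 3 counts, the most that a count of 0 was taken to allow, were worth between 0.111 and 0.202 CPM, counts scaled to a common library total. All 12 hepatocyte markers were counted in every cow. Their summed level was 20431 CPM in TN replicate 1 and between 64314 and 137990 CPM in the other cows, so that library stood apart, and values without it are given beside the results named below as resting on it. Transcripts of the 13 protein-coding mitochondrial genes took up from 13.6% to 22.2% of a library in the TN group, from 6.90% to 7.79% in the PF group and from 3.84% to 5.68% in the HS group. In biopsies of whole tissue, fewer cells of a type and less RNA per cell cannot be told apart. The levels below are CPM on libraries scaled by TMM, a method that sets most genes to no change. They carry no correction for transcript length, so they were compared between cows and not between genes.

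*FOXA3* was the member that differed most between the groups. It was the only 1 of the 9 that rose in the HS group against the TN group, by edgeR's quasi-likelihood test at a Benjamini-Hochberg adjusted p (FDR) under 0.1 and a fold change over 1.5. Over the whole table, 0.0892% of the 14582 genes tested were called by this rule. DESeq2 called 2 members, *FOXA3* and *CREB3L3*, where 1.75% of all genes were called. At an unadjusted p under 0.05, 4 members passed, *FOXA3*, *CREB3L3* and *CEBPB* with higher values in the HS group and *FOXA2* with lower values, where 9.36% of all genes passed. Without TN replicate 1 edgeR called none, and 5 members passed an unadjusted p under 0.05, all with higher values in the HS group, where 6.48% of all genes passed; *CEBPA* and *ONECUT1* were then among them and *FOXA2* was not. The cows of both groups did not overlap for 4 members, *FOXA3*, *CREB3L3*, *CEBPB* and *HNF4A*, where 16.1% of all genes did not overlap. The median log2 fold change of the 9 members was 0.60, against -0.01 over all genes tested, with 6 of the 9 above 0.

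Against the PF group, edgeR called none of the 9 members, and 0.0276% of the 14510 genes tested were called. DESeq2 called *FOXA3* alone, where 0.771% of all genes were called. *FOXA3*, higher in the HS group, and *FOXA2*, lower in it, passed an unadjusted p under 0.05, where 5.32% of all genes did. These and *HNF4A* were the 3 members whose HS and PF cows did not overlap, where 10.5% of all genes did not. The median of the members was 0.20, against 0.01 over all genes tested.

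Pair-feeding alone gave no call among the members. In PF against TN, edgeR called none of the 9 and 0% of the 14580 genes tested, and DESeq2 none of the 9 where 0.555% of all genes were called. At an unadjusted p under 0.05 none of the 9 passed, where 6.88% of all genes did (without TN replicate 1, *ONECUT1* passed, where 4.35% of all genes did), and the cows of both groups overlapped for all 9, where 13.2% of all genes did not overlap. The median of the members was 0.15, against -0.01 over all genes tested. HS against TN and PF against TN share the same 3 TN cows, so their values are given side by side and were not correlated.

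**Figure D1:**
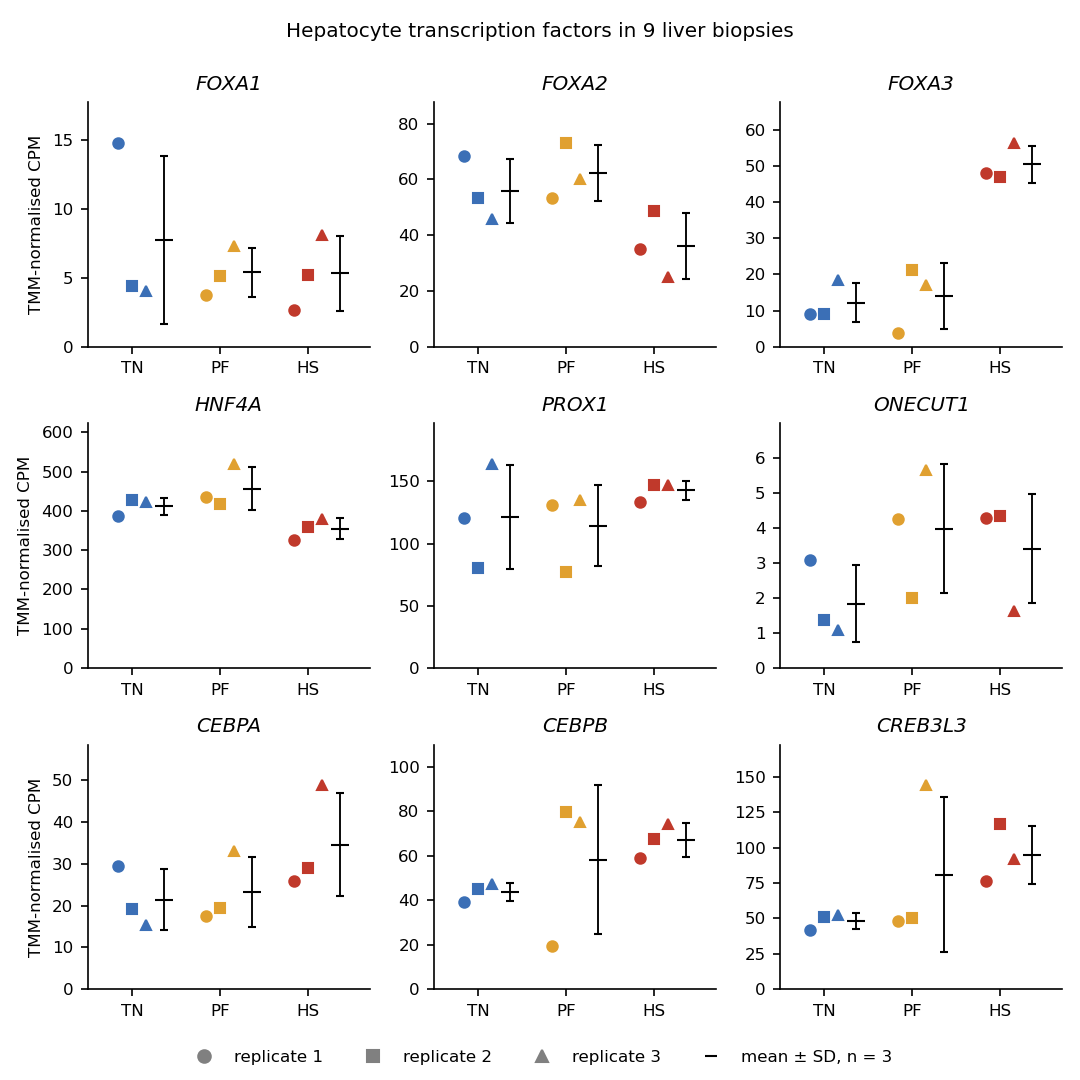
Level of each of the 9 transcription factors in every cow, in CPM on TMM-scaled libraries, 1 panel a gene with an axis of its own that starts at 0; points are cows of the TN, PF and HS groups and lines are group means with the SD of 3 cows. *FOXA3* is the gene whose HS cows, from 46.8 to 56.3 CPM, stand far above all TN and PF cows, the highest of which reached 21.3 CPM.

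*FOXA3* stood at 8.95, 9.14 and 18.5 CPM in the 3 TN cows. In the PF cows its level was 3.73, 21.3 and 17.2 CPM, and in the HS cows 48.0, 46.8 and 56.3 CPM. Every HS cow was above every cow kept at thermoneutrality, and the PF and TN cows were intermixed, with PF replicate 1 the lowest of the 9. The counts behind these levels ran from 63 in PF replicate 1 to 1299 in HS replicate 1. The group means were 50.4 ± 5.18 CPM in the HS group, 14.1 ± 9.21 CPM in PF cows and 12.2 ± 5.45 CPM in TN cows (SD, n = 3). The PF and TN means were 1.89 CPM apart, less than the SD within either group.

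The fitted log2 fold change of *FOXA3* in HS against TN was 2.03 (SE 0.30), a 4.10-fold higher level with a 95% confidence interval from 2.56 to 6.56 (edgeR, FDR 0.0919). By p it was the 10th gene of the whole table. Without TN replicate 1 the value was 1.86 (edgeR, FDR 0.207), no longer past the threshold. The call was kept in 1 of the 6 fits that left out a cow, the one without TN replicate 3 (2.46, edgeR FDR 0.0644), while the log2 fold change stayed between 1.86 and 2.46 in all 6. DESeq2 gave an FDR of 1.42e-06, and over all alternatives the FDR of this gene ran from 1.42e-06 to 0.246.

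In HS against PF the log2 fold change of *FOXA3* was 1.83 (SE 0.47), a 3.56-fold higher level with an interval from 1.73 to 7.33 (edgeR, FDR 0.420). This missed the FDR threshold although the groups did not overlap. PF replicate 1, with the lowest level, widened the spread of the PF group. Without that cow the value was 1.39 with an SE of 0.24 (edgeR, FDR 0.314). DESeq2 gave 1.83 with an FDR of 0.0120, and over all alternatives the FDR ran from 0.00979 to 0.689. In PF against TN the log2 fold change was 0.21, with an interval from -0.93 to 1.35 that leaves room for a 2.54-fold higher level (edgeR, FDR 0.925).

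The other FOXA paralogs did not share this pattern. *FOXA2* stood at 68.3, 53.3 and 46.0 CPM in the TN cows, 53.2, 73.1 and 60.3 CPM in the PF cows, and 35.0, 48.6 and 25.2 CPM in the HS cows. All HS cows lay below all PF cows, and HS replicate 2 overlapped the TN group. Its log2 fold change was -0.78 (SE 0.27, interval -1.38 to -0.18) in HS against PF and -0.64 (SE 0.28, interval -1.28 to -0.01) in HS against TN, neither of which passed (edgeR, FDR 0.712 and 0.522). PF against TN gave 0.15 (edgeR, FDR 0.886).

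*FOXA1* stood at 14.8, 4.39 and 4.05 CPM in the TN cows, 3.73, 5.14 and 7.29 CPM in the PF cows, and 2.66, 5.20 and 8.07 CPM in the HS cows. The 3 groups overlapped throughout, and the single high value was TN replicate 1, the cow with the lowest hepatocyte markers. Its log2 fold change in HS against TN was -0.59 (SE 0.57, edgeR FDR 0.730), and without TN replicate 1 it was 0.32, in the other direction. In HS against PF it was -0.04, with a wide interval from -0.99 to 0.92.

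The paralogs were then compared within each cow, since the ratio of 2 genes in 1 library does not depend on its size. The log2 ratio of *FOXA3* to *FOXA2* counts was -2.93, -2.54 and -1.31 in the TN cows, -3.82, -1.77 and -1.81 in the PF cows, and 0.45, -0.05 and 1.16 in the HS cows. All 6 thermoneutral cows lay below all 3 HS cows. The mean ratio was 2.78 (SE 0.60) higher in HS than in TN on the log2 scale, or 6.87-fold, and 2.99 (SE 0.76) higher than in PF, or 7.94-fold. An exact permutation test over the 280 splits of the 9 cows into 3 groups gave p = 0.0286, which missed 0.05 after adjustment (0.133 by Benjamini-Hochberg over the 8 ratio tests). With 1 cow left out the exact permutation p ran from 0.0179, without PF replicate 1, to 0.0607, without HS replicate 3.

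The log2 ratio of *FOXA3* to *FOXA1* was -0.72, 1.05 and 2.18 in the TN cows, 0.00, 2.05 and 1.23 in the PF cows, and 4.16, 3.16 and 2.80 in the HS cows. HS cows were again the highest, with TN replicate 3 the nearest to them. The mean ratio was 2.54 (SE 0.94) higher in HS than in TN and 2.28 (SE 0.72) higher than in PF. Without TN replicate 1, the cow with the highest *FOXA1* level, the difference between HS and TN was 1.76. The 3-group exact permutation test over all 9 cows gave p = 0.0821 (adjusted 0.133). With 1 cow left out that p ran from 0.0286, without TN replicate 3, to 0.186, without HS replicate 1 (exact permutation test). For both ratios, HS against TN and HS against PF gave p = 0.1 by the exact two-sided permutation test, which is the smallest that 3 cows against 3 allow. PF and TN differed by 0.26 for *FOXA1* and -0.21 for *FOXA2* on the log2 scale (exact permutation p = 0.8 for each).

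Expressed as a share, *FOXA3* took 9.72%, 13.7% and 27.0% of the counts of the 3 paralogs in the TN cows. In the PF cows the share was 6.15%, 21.4% and 20.3%, and in the HS cows 56.0%, 46.5% and 62.9%. In HS cows *FOXA3* alone gave close to as many counts as *FOXA1* and *FOXA2* together, or more, with 95% confidence intervals (Wilson) from 44.2% at the lowest to 65.4% at the highest, against an upper bound of 29.6% in any other cow. These intervals cover counting error only, and the shares are not corrected for the lengths of the 3 transcripts.

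**Figure D2:**
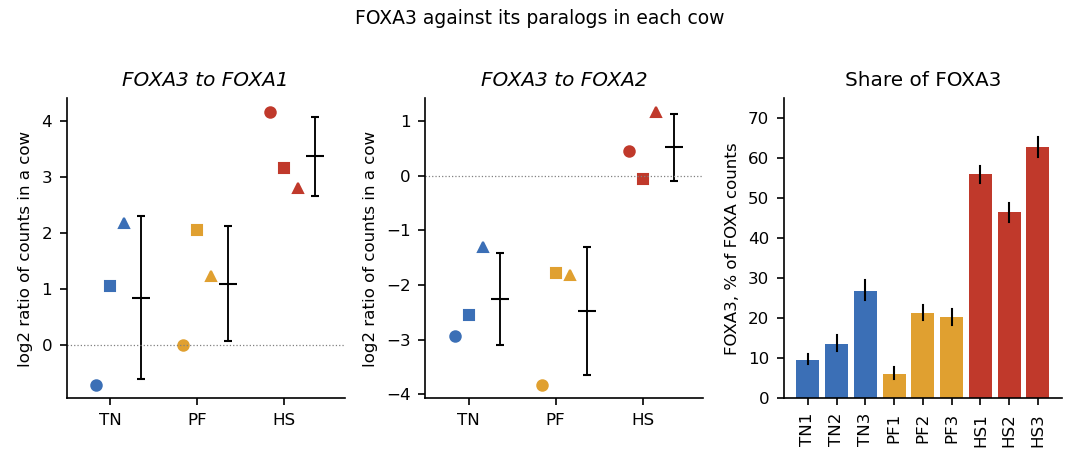
*FOXA3* against its paralogs in every cow: log2 ratio of *FOXA3* to *FOXA1* and to *FOXA2* counts, and the share of *FOXA3* in the counts of the 3 paralogs in percent with its 95% Wilson interval. The HS cows hold the 3 highest ratios to each paralog and the 3 highest shares, from 46.5% to 62.9%.

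Whether *FOXA3* varied with the other members among cows was looked at within the 6 thermoneutral cows, because the 3 HS cows formed a cluster of their own. Over these 6 cows *FOXA3* and *CREB3L3* gave r = 0.377 (exact permutation p = 0.424) and rho = 0.543 (exact permutation p = 0.297). *FOXA3* and *FOXA1* gave r = 0.0849 (exact permutation p = 0.838) and rho = 0.143 (exact permutation p = 0.803), and *FOXA3* and *FOXA2* gave r = 0.217 (exact permutation p = 0.708) and rho = 0.257 (exact permutation p = 0.658). After adjustment over the 3 relations, every p was 0.838 for r and 0.803 for rho. No relation was detected with 6 cows. Without the 2 cows farthest from the *FOXA3* median, PF replicates 1 and 2, r was -0.432 for *FOXA1*, -0.527 for *FOXA2* and 0.593 for *CREB3L3*.

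*HNF4A*, the central regulator of hepatocyte metabolism, varied least among the 9 cows of all members, with a highest level 1.59 times the lowest. Its level was 386, 427 and 421 CPM in the TN cows, 435, 417 and 519 CPM in the PF cows, and 327, 359 and 379 CPM in the HS cows. All HS cows lay just below all others, with means of 354.8 ± 26.3 CPM in HS, 411.5 ± 21.9 CPM in TN and 456.7 ± 54.6 CPM in PF (SD, n = 3). The log2 fold change was -0.23 (interval -0.88 to 0.42) in HS against TN and -0.37 (interval -0.93 to 0.20) in HS against PF, and neither passed (edgeR, FDR 0.793 and 1.00).

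Read per 100 *HNF4A* counts of the same cow, a scale chosen after the levels were seen, *FOXA3* gave 2.32, 2.14 and 4.39 counts in the TN cows, 0.858, 5.12 and 3.31 in the PF cows, and 14.7, 13.1 and 14.9 in the HS cows. On this within-cow scale the HS cows were clear of the rest. *HNF4A* itself was lowest in the 3 HS cows, which raises their values on this scale. *FOXA2* gave 6.64 to 13.6 counts per 100 *HNF4A* counts in the HS cows and 10.9 to 17.7 in the others, with overlap.

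Neither *PROX1* nor *ONECUT1* passed the test in any comparison. *PROX1* stood at 121, 80.0 and 164 CPM in the TN cows, 131, 76.8 and 135 CPM in the PF cows, and 134, 147 and 147 CPM in the HS cows, with log2 fold changes of 0.22 in HS against TN and 0.32 in HS against PF (edgeR, FDR 0.816 and 1.00). The HS cows were close together for *PROX1* and lay inside the range of the TN cows. *ONECUT1* had few reads, between 18 and 116 counts a cow, and stood at 3.09, 1.36 and 1.07 CPM in the TN cows, 4.26, 2.01 and 5.66 CPM in the PF cows, and 4.28, 4.33 and 1.61 CPM in the HS cows. *ONECUT1* had a log2 fold change of 0.85 (SE 0.57) in HS against TN (edgeR, FDR 0.629) and 1.10 in PF against TN, with an interval from -0.16 to 2.35 that includes 0 (edgeR, FDR 0.709). TN replicate 1 had the highest *ONECUT1* level of its group, and without it the values were 1.49 in HS against TN and 1.71 in PF against TN (edgeR, FDR 0.689 and 1.00), with unadjusted edgeR p of 0.0283 and 0.0149.

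Both C/EBP factors had their highest mean in the HS group, and neither passed the test. *CEBPB*, the acute-phase factor, stood at 39.2, 45.0 and 47.4 CPM in the TN cows, 19.5, 79.7 and 75.3 CPM in the PF cows, and 59.3, 67.8 and 74.2 CPM in the HS cows. HS cows were all above TN cows, while the PF cows spread from the lowest to the highest value of the 9. The log2 fold change of *CEBPB* was 0.60 (SE 0.21, interval 0.13 to 1.06) in HS against TN and 0.20 (SE 0.42) in HS against PF (edgeR, FDR 0.458 and 1.00). *CEBPA* stood at 29.5, 19.2 and 15.4 CPM in the TN cows, 17.5, 19.3 and 32.97 CPM in the PF cows, and 25.9, 29.1 and 48.8 CPM in the HS cows. The HS group overlapped TN through TN replicate 1 alone and PF through PF replicate 3. Its log2 fold change was 0.67 (SE 0.32) in HS against TN and 0.56 (SE 0.32) in HS against PF (edgeR, FDR 0.536 and 0.985). In HS against TN it was 0.99 without TN replicate 1 (edgeR, FDR 0.626, unadjusted p = 0.0114) and 0.34 without HS replicate 3 (edgeR, FDR 0.935).

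*CREB3L3* stood at 41.8, 51.3 and 52.2 CPM in the TN cows, 47.9, 50.5 and 144 CPM in the PF cows, and 76.5, 117 and 91.7 CPM in the HS cows. Every HS cow was above every TN cow, and PF replicate 3 was the highest of the 9, while the remaining PF cows lay within the TN range. The log2 fold change in HS against TN was 0.96 (SE 0.24), a 1.94-fold higher level with an interval from 1.33 to 2.82 (edgeR, FDR 0.322). Without TN replicate 1 it was 0.87 (edgeR, FDR 0.538). DESeq2 gave 0.99 with an FDR of 0.0345, past the threshold, and over all alternatives the FDR ran from 0.0345 to 0.636.

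The position of the PF group for *CREB3L3* rested on 1 cow. In PF against TN the log2 fold change was 0.74 (SE 0.40, edgeR FDR 0.709) and without PF replicate 3 it was 0.03. In HS against PF it was 0.23 (SE 0.40, edgeR FDR 1.00) and without PF replicate 3 it was 0.94 (edgeR, FDR 0.493). Per 100 *HNF4A* counts, *CREB3L3* gave 10.8, 12.03 and 12.4 counts in the TN cows, 11.01, 12.1 and 27.8 in the PF cows, and 23.4, 32.6 and 24.2 in the HS cows. That scale left the same cow apart from its group.

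**Figure D3:**
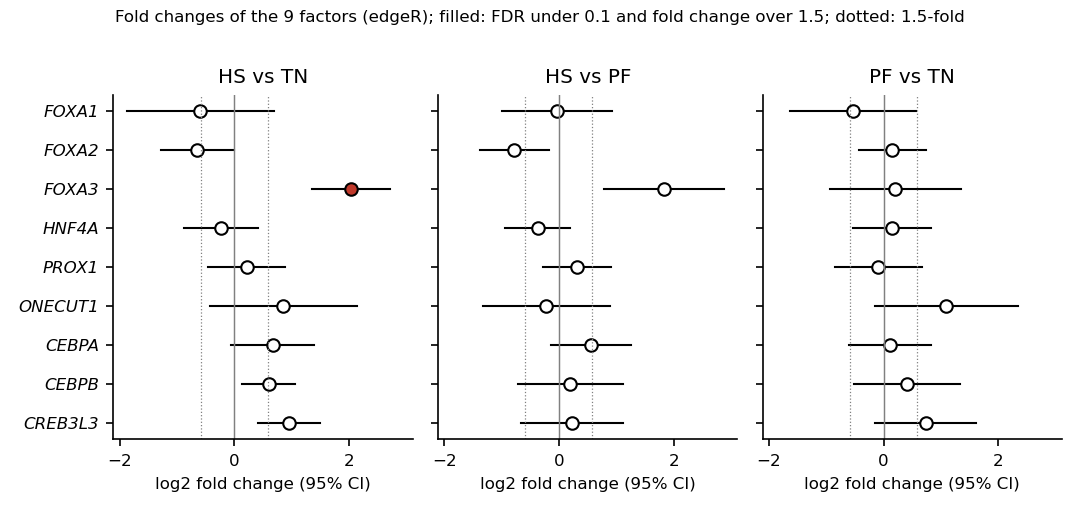
Log2 fold change of each of the 9 transcription factors in HS against TN, HS against PF and PF against TN, with a 95% confidence interval derived from the edgeR F test. A filled marker is a gene called at FDR below 0.1 with more than a 1.5-fold difference. The single call is *FOXA3* in HS against TN, at 2.03, and the intervals of *FOXA3* lie above 0 against both TN and PF.

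In order of group means, HS was highest and TN lowest for *FOXA3*, *CEBPA*, *CEBPB* and *CREB3L3*. HS was lowest for *FOXA1*, *FOXA2* and *HNF4A*, with TN the highest for *FOXA1* and PF for *FOXA2* and *HNF4A*. *ONECUT1* was highest in PF and lowest in TN, and *PROX1* highest in HS and lowest in PF. Of neighbours in these orders, the cows were apart only between HS and PF for *FOXA3* and between TN and HS for *HNF4A*. Of all genes, 10.5% did not overlap in HS against PF, 16.1% in HS against TN and 13.2% in PF against TN. All other neighbours overlapped. Of these steps, TN to HS for *FOXA2* (19.6 CPM, against an SD of up to 11.8 CPM) and HS to TN for *ONECUT1* (1.57 CPM, against 1.55 CPM) were larger than the SD within either group, and the others were smaller than the larger SD.

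The genes whose levels over the 9 cows ran most like *FOXA3* were *LOC508131*, *GNG7*, *ATG10*, *EML2* and *CNPY3*, with r between 0.935 and 0.967 among 15072 genes. *GNG7* encodes a G protein subunit, *ATG10* an enzyme of autophagosome formation, and *CNPY3* a chaperone of the endoplasmic reticulum. *GNG7* ran from 12.98 to 16.6 CPM in HS, from 5.92 to 11.8 CPM in PF and from 8.19 to 9.51 CPM in TN, which is the same split of HS from all others at a smaller size. For *CREB3L3* the most alike were *UTP6*, *APOC2*, *WDCP*, *PBX2* and *DNA2* (r 0.905 to 0.966), of which *APOC2*, the cofactor of lipoprotein lipase, was at 313 to 407 CPM in the HS group, 200.1 to 533 CPM in PF cows and 91.7 to 171 CPM in TN cows. *DNA2*, with under 1 CPM in every cow, rests on few counts. For *HNF4A* they were *LOC508455*, *LOC787269*, *GALT*, *SMIM10* and *EFCC1* (r 0.893 to 0.935). These r values describe 9 cows in 3 treatment groups that share library preparation, and the genes were picked as the highest of the table.

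Of 23 other liver-enriched transcription factors, 21 were tested. None was called by edgeR in any comparison, where at most 0.0892% of all genes were called. The median log2 fold change was 0.09 in HS against TN, -0.06 in HS against PF and -0.01 in PF against TN. At an unadjusted p under 0.05, 3 were higher and 1 lower in HS against TN, where 9.36% of all genes passed. In HS against PF 1 was lower, where 5.32% of all genes passed. None passed in PF against TN, where 6.88% of all genes did. *ATF5*, a stress-responsive bZIP factor, was at 221 ± 39.5 CPM in HS and 409 ± 91.0 CPM in TN (SD, n = 3), a log2 fold change of -0.90 (SE 0.31, edgeR FDR 0.462) that DESeq2 called. The others with the smallest p were *NR2F6* (0.75), *FOXO3* (0.51) and *HNF4G*, the paralog of *HNF4A* (0.50), with edgeR FDRs of 0.475, 0.509 and 0.522.

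All 18 metabolic nuclear receptors were tested, with a median log2 fold change of 0.02 in HS against TN, 0.17 in HS against PF and -0.17 in PF against TN. In HS against TN, *PPARA*, the receptor that drives hepatic fatty acid oxidation, was at 0.49 (edgeR, FDR 0.581), *NR3C1*, the glucocorticoid receptor, at -0.29 (edgeR, FDR 0.688) and *PPARG*, a receptor of lipid storage, at -0.73 (edgeR, FDR 0.692). None of these 3 passed the test.

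Among 9 relatives in the C/EBP and CREB3 families, 8 were tested and none was called by edgeR or DESeq2 in any comparison. Of all genes, at most 0.0892% were called by edgeR and at most 1.75% by DESeq2. The median log2 fold change was -0.16 in HS against TN, while *CEBPB* and *CREB3L3* themselves were at 0.60 and 0.96. None passed an unadjusted p under 0.05 in HS against TN or HS against PF, where 9.36% and 5.32% of all genes did. In PF against TN *DDIT3*, which encodes the stress factor CHOP, was at -0.73 (edgeR, FDR 0.708). Values in HS against TN were -0.76 for *CREB3L1*, -0.52 for *CREB3L2*, -0.36 for *CREB3L4* and -0.24 for *DDIT3*. These rested in part on TN replicate 1, where *CREB3L2* was at 12.04 CPM against 3.397 and 3.22 CPM in the other TN cows and 4.58, 5.38 and 3.43 CPM in the HS cows. Without that cow the values were -0.56, 0.43, -0.03 and 0.00 for the same genes, and the list's median was 0.01.

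None of the 12 genes for CREB3L3 processing and endoplasmic reticulum stress sensing was called by edgeR or DESeq2 in any comparison. Over the 3 comparisons, at most 0.0892% of all genes were called by edgeR and at most 1.75% by DESeq2. In HS against TN 2 were higher and 1 lower at an unadjusted p under 0.05, where 9.36% of all genes passed. *XBP1*, a factor of the unfolded protein response, was at 0.84 (edgeR, FDR 0.491), the chaperone gene *HSPA5* at 0.81 (edgeR, FDR 0.503), *ATF6* at 0.63 (edgeR, FDR 0.536) and *ATF6B* at -0.46 (edgeR, FDR 0.518). *MBTPS1* and *MBTPS2*, whose proteases cut CREB3L3 free from the membrane, were at 0.09 and -0.30 (edgeR, FDR 0.912 and 0.730). Without TN replicate 1 *XBP1* was at 0.64, *HSPA5* at 0.63, *ATF6* at 0.38, *ATF6B* at -0.35 and *MBTPS1* at -0.02, and the list's median was 0.18 in place of 0.08. None of these genes then passed an unadjusted p under 0.05. Those of the list that did were *ERN1* (0.62) and *ATF4* (-0.63), where 6.48% of all genes passed.

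The 17 known targets of CREB3L3 were all tested. In HS against TN, *HAMP*, which encodes the iron hormone hepcidin, rose (log2 fold change 2.47, SE 0.37, edgeR FDR 0.0919), from 87.7 ± 31.5 CPM in TN to 492 ± 63.7 CPM in HS (SD, n = 3). Its HS cows were at 529.7, 527 and 418 CPM and its PF cows at 72.0, 684 and 145 CPM, so PF replicate 2 lay above every HS cow. The call of *HAMP* was lost with all 9 libraries in 1 fit (2.49, edgeR FDR 0.290) and in all 6 fits with a cow removed (log2 fold change 2.20 to 2.69, edgeR FDR 0.106 to 0.343), and DESeq2 gave an FDR of 1.66e-11. No other target was called by edgeR, where 0.0892% of all genes were called. At an unadjusted p under 0.05, 6 of the 17 including *HAMP* were higher, where 9.36% of all genes passed in either direction. DESeq2 called 5, where 1.75% of all genes were called, and the list's median was 0.49. In PF against TN none was called by edgeR. There 7 of the 17 were higher at an unadjusted p under 0.05, where 6.88% of all genes passed in either direction. DESeq2 called 3, where 0.555% of all genes were called, and the list's median was 0.64. In HS against PF none was called by edgeR or DESeq2, where 0.0276% and 0.771% of all genes were called, and the median was -0.13.

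*INHBE*, an inhibin subunit made by the liver, was at 34.8 ± 4.23 CPM in HS and 9.71 ± 3.58 CPM in TN (SD, n = 3). Its log2 fold change was 1.82 (SE 0.30, edgeR FDR 0.114) in HS against TN and 1.46 (SE 0.36, edgeR FDR 0.583) in PF against TN, and DESeq2 called both. *SAA3*, an acute-phase serum amyloid gene named after its values were seen, was at 83.8 ± 74.5 CPM in the HS group, 20.1 ± 6.92 CPM in PF cows and 7.03 ± 2.48 CPM in TN cows (SD, n = 3). In HS against TN its log2 fold change was 3.56 (SE 0.68, interval 2.03 to 5.08), not past the threshold (edgeR, FDR 0.184) although the groups did not overlap and DESeq2 called it. *APOC2* was at 1.31 (SE 0.33, edgeR FDR 0.315) in HS against TN. *FGF21*, a fasting hormone of the liver, named here after its values were seen, was at 1.42, 28.5 and 10.2 CPM in the PF cows and at most 3.22 CPM in any TN or HS cow. Its log2 fold change was 3.59 (SE 1.22) in PF against TN and -3.49 (SE 1.06) in HS against PF (edgeR, FDR 0.697 and 0.625).

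Of 35 hepatocyte genes that FOXA, HNF4A and C/EBP factors are known to drive, all were tested in both HS comparisons and 34 in PF against TN. EdgeR and DESeq2 called none of them in any comparison, where at most 0.0892% and 1.75% of all genes were called. None passed an unadjusted p under 0.05 in either HS comparison, where 9.36% (against TN) and 5.32% (against PF) of all genes did. *CYP7A1*, the rate-limiting enzyme of bile acid synthesis, did so in PF against TN (-1.89), where 6.88% of all genes passed. The median log2 fold change was 0.27 in HS against TN, -0.01 in HS against PF and 0.40 in PF against TN, with 24, 16 and 27 genes above 0. The smallest p in HS against TN belonged to *F9* (0.88), *APOA1* (1.22), *OTC* (0.79) and *FGG* (1.12). TN replicate 1 was the lowest cow of all for *F9*, *OTC* and *FGG*, at 129.7 CPM for *F9* against 399 and 337 CPM in the other TN cows. Without it the values were 0.54, 1.71, 0.43 and 0.70, and the list's median was 0.02 in HS against TN and 0.16 in PF against TN. *CYP7A1* was then at -1.02 in PF against TN and no longer passed the unadjusted threshold. In that comparison without TN replicate 1, 3 of the 34 genes passed it with higher and 2 with lower values, where 4.35% of all genes passed. In HS against TN without that cow, 1 of the 35 genes passed it, *APOA1* with higher values, where 6.48% of all genes passed.

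**Figure D4:**
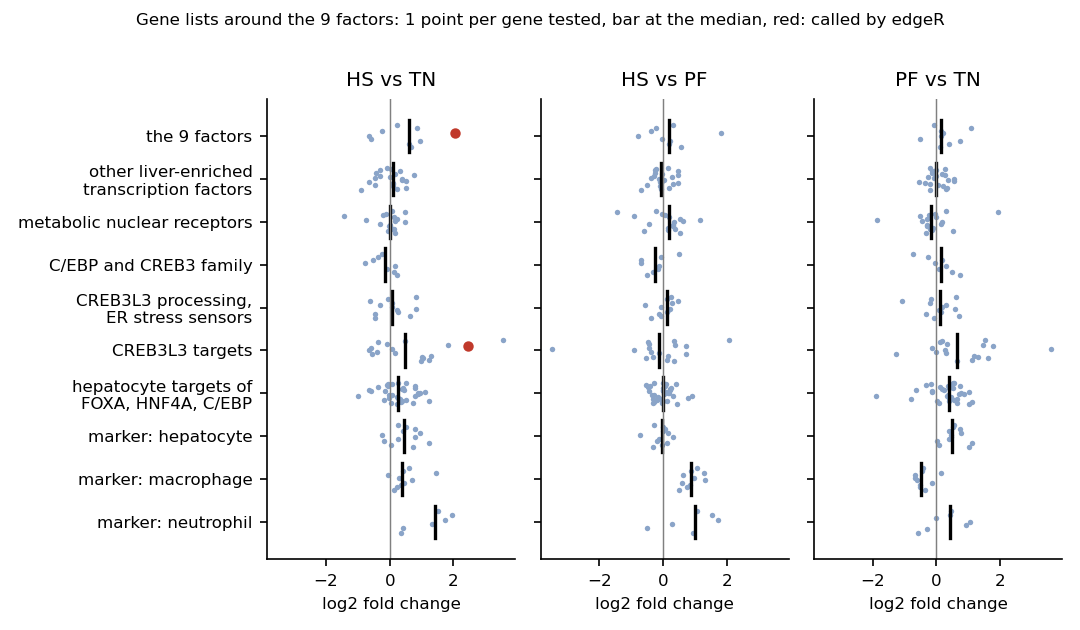
Log2 fold change of each tested gene in the lists around the transcription factors, for HS against TN, HS against PF and PF against TN; marker lists of hepatocytes, macrophages and neutrophils are added, each point is a gene, the bar the list's median, and red points are genes called at FDR below 0.1 with more than a 1.5-fold difference. Calls appear for *FOXA3* among the 9 members and *HAMP* among CREB3L3 targets, both in HS against TN.

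Markers of other cells moved with some of these groups, and their part in the members' values was not tested. For 10 macrophage markers, summed levels were 2298 to 3924 CPM in the HS group. They were 1370.3 to 2169 CPM in PF cows and 1583 to 3589.7 CPM in TN cows. Of these markers, 9 were higher in HS than in PF at an unadjusted p under 0.05, where 5.32% of all genes passed. None was called in that comparison by edgeR or DESeq2, where 0.0276% and 0.771% of all genes were called. For 8 neutrophil markers the sums were 68.7 to 143, 40.9 to 72.1 and 32.4 to 55.0 CPM in the same order. In HS against TN, DESeq2 called 1 macrophage and 2 neutrophil markers, where 1.75% of all genes were called. EdgeR called none of either list there, where 0.0892% of all genes were called. *FOXA3* is also known from pancreas and intestine. Of 12 pancreas markers, 7 had 3 counts or fewer in every cow. The sum was 19.1 to 35.0 CPM in the HS group, 2.18 to 25.4 CPM in PF cows and 0.775 to 2.90 CPM in TN cows. Nearly all of the high sums came from *PRSS2*, a trypsinogen gene. It was at 33.9, 21.2 and 17.6 CPM in the HS cows, 24.2 CPM in PF replicate 1 and at most 0.494 CPM in any other cow. PF replicate 1 was the lowest of the 9 cows for *FOXA3*, at 3.73 CPM, while the HS cows were the highest for it. Any part of pancreatic tissue in the *FOXA3* levels was not tested. Of 2 pancreas markers tested in HS against TN, *PRSS2* was called higher (edgeR, FDR 0.0684) and the other was at -0.30. Of 10 intestine markers, 5 had 3 counts or fewer in every cow, and the sums overlapped, at 299 to 489.5 CPM in the HS group, 235 to 757 CPM in PF cows and 251 to 403 CPM in TN cows. The remaining lists had sums that overlapped between HS and TN, at 26.5 to 129 and 55.2 to 141 CPM for 10 cholangiocyte markers, 238 to 558 and 306 to 569 CPM for 10 markers of stellate cells and fibroblasts, 809.8 to 1255 and 805 to 1116 CPM for 10 endothelial markers, 116 to 133 and 124 to 160.1 CPM for 10 lymphocyte markers, and 31.2 to 43.9 and 26.7 to 51.5 CPM for 10 proliferation genes. The 8 erythroid markers summed to 1.08 to 2.51 CPM in HS and 4.08 to 23.4 CPM in TN, so all HS cows were lower.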

How the data were processed

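Poly(A) RNA from the liver biopsies of 9 Holstein cows (TN, PF and HS, 3 cows and 3 libraries each) was sequenced by the authors. The deposited table holds raw counts of reads for each gene, not normalized, and the labels tie every column to its cow and group. Per the labels, the tools were fastp 0.23.2, STAR 2.7.9a and featureCounts 2.0.3, and the build was ARS-UCD1.2 according to the study's methods. The annotation release and the settings for strand and multi-mapped reads are not given in the sources used here. None of the 9 genes overlapped another gene in ARS-UCD2.0 RefSeq, in which all 9 symbols matched, but reads shared between close paralogs could be dropped or split by the counting.

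The 6 libraries of a comparison entered 1 fit in edgeR 4.0.16 (limma 3.58.1, R 4.3.3): filterByExpr, TMM, quasi-likelihood F test, Benjamini-Hochberg adjustment over all genes tested, and a call at an FDR under 0.1 with a fold change over 1.5. These are the study's thresholds, and its tool, DESeq2 (version 1.42.0 here), was an alternative. The SE of a fitted log2 fold change was its absolute value over the square root of the test's F. Its 95% confidence interval took the t quantile at that test's degrees of freedom. Within-cow ratios used counts plus 0.5 and exact permutation tests over cows. Likeness was Pearson's r of log2 CPM over 9 cows, plus 0.5 CPM. Correlations of *FOXA3* with other members had been planned over 9 cows and were run over the 6 thermoneutral cows, since the HS cows were apart. The libraries held 16874444 to 22557047 counts. Wilson intervals and the 3-count floor cover counting error only.

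The members and the gene lists were chosen with earlier results of these data known. Named were all members, from each list the genes called and otherwise up to 4 with the smallest p in HS against TN, and the 5 genes most like *FOXA3*, *CREB3L3* and *HNF4A*. Outside this rule, *MBTPS1*, *MBTPS2*, *ERN1*, *ATF4*, *CYP7A1*, *SAA3* and *FGF21* were also named. The lists were other liver transcription factors, nuclear receptors, C/EBP and CREB3 relatives, CREB3L3 processing genes and targets, hepatocyte targets, proliferation genes and markers of 10 cell types or tissues. Alternatives were DESeq2, other scalings and low-count filters, no mitochondrial genes, all 9 libraries in 1 fit, a replicate block, an FDR under 0.05, other added counts in the ratios and leaving out each cow. Transcript lengths and sequences were not used here. A result of the nuclear receptor list is not reported here.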

Additional observations from a re-analysis of the deposited data

How the results depend on the processing

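Of 216 fold changes of members refitted with all cows, 209 kept their direction and side of the threshold, as did 142 of 162 with 1 cow left out; the cause of the others was not tested. Against 1 member called in HS against TN, DESeq2 gave 2, an FDR under 0.05 gave 0, all 9 libraries in 1 fit gave 0 (*FOXA3* at 2.05, FDR 0.222), and leaving out 1 cow 0 to 1. Against none in HS against PF, DESeq2 and no low-count filter gave 1 each. Of all genes, HS against TN called 13 (5 higher), with 270 by DESeq2, 124 with no filter, 22 (12 higher) with library totals in place of TMM, 4 with all 9 libraries, 0 at an FDR under 0.05, and 0 to 39 with 1 cow left out. HS against PF called 4 (1 higher), with 122, 98 and 17 (12 higher) under the first 3 of these, 8 (3 higher) with RLE size factors, 8 (3 higher) without mitochondrial genes, and 5 to 10 with 1 cow left out. PF against TN called 0, with 91 by DESeq2, 136 with no filter, 1 at 10 or more counts in every library, and 0 to 14 with 1 cow left out. Library totals moved the median log2 fold change of all genes to -0.17 in PF against TN, and *FOXA2* there to -0.043 and *CEBPA* to -0.087.

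Leaving out 1 cow turned the sign of some members that were not called. The ranges were -1.01 to 0.32 (*FOXA1*) and -0.0043 to 0.49 (*PROX1*) in HS against TN. In HS against PF they were -0.46 to 0.28 (*FOXA1*), -0.53 to 0.13 (*ONECUT1*), -0.21 to 0.50 (*CEBPB*) and -0.035 to 0.94 (*CREB3L3*). In PF against TN they were -0.83 to 0.36 (*FOXA1*), -0.22 to 0.66 (*FOXA3*), -0.22 to 0.43 (*CEBPA*) and -0.31 to 0.19 (*PROX1*). The log2 ratio difference between HS and TN ran from 1.76 to 3.21 for *FOXA3* to *FOXA1* and from 2.45 to 3.25 for *FOXA3* to *FOXA2* with 1 cow left out.

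Deviations of cows with the same replicate number gave r from -0.22 to 0.24 over the 3 comparisons. Cows with different numbers gave r from -0.31 to 0.30. Such values cannot decide whether cows were paired. The paper matched PF intake to that of HS cows, and the labels do not say which cows belong together. With the replicate number as a block, the calls over all genes were 33 in HS against TN, 6 in HS against PF and 1 in PF against TN, and the members called stayed at 1, 0 and 0. *FOXA3* was at 2.11 in HS against TN under the block, and at -0.032 in PF against TN.

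With 3 cows a group, intervals of single members spanned up to several-fold, so a member that missed the threshold was not shown to be unchanged. *ONECUT1* had the fewest counts of the 9, and the part of depth in its interval was not tested. Fits of the lists without TN replicate 1 were chosen after seeing the data. Their medians in HS against TN were 0.21 for other liver transcription factors and 0.51 for CREB3L3 targets, and in PF against TN 0.08 and 0.48.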

Other observations

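Single PF cows held the extremes of several members. PF replicate 1 was the lowest of the 9 cows for *FOXA3* (3.73 CPM) and *CEBPB* (19.5 CPM). PF replicate 3 was the highest of the 9 for *CREB3L3* (144 CPM), *HNF4A* (519 CPM) and *ONECUT1* (5.66 CPM). In the HS group, *FOXA3*, *PROX1*, *CEBPB* and *HNF4A* varied little among cows. Their SDs were 5.18, 7.79, 7.51 and 26.3 CPM around means of 50.4, 142.8, 67.1 and 354.8 CPM.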
